A study of Mus musculus with 4 samples.

Results

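The genes described here were 10 transcription factor genes that act in group 2 innate lymphoid cells (ILC2s) or in their precursors: Gata3, Rora, Bcl11b, Gfi1, Tox, Zbtb16, Nfil3, Tcf7, Lef1 and Ets1. They were picked by name from the known biology of the lineage, at a time when earlier results of these data were known. All 10 were among the 22558 genes of the count table and among the 11711 genes that passed the filter on low counts and were tested. RNA was sequenced from activated ILC2s sorted from lungs at day 4, after 3 intranasal challenges with 0.5 µg rm-IL33, recombinant mouse interleukin-33, an epithelial alarmin that activates ILC2s. The libraries were 2 from wildtype C57BL/6 mice (WT) and 2 from mice labelled ICAM-1 KO, all 6 weeks old and all given rm-IL33, so that no unchallenged cells were measured here. ICAM-1 is an adhesion molecule bound by the integrin LFA-1, and the comparison asked how its loss bears on the RNA of activated ILC2s. The methods name the deficient strain as B6.129S4-Icam1 tm1Jcgr/J, a germline mutation carried by the ILC2s and by the lung around them alike. Each library was made from a pool of 4 mice and the labels do not say whether replicates came from separate experiments, so p-values measure only the spread between 2 pools per group.

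ILC2s are tissue lymphocytes without rearranged antigen receptors that release type 2 cytokines within hours of an alarmin. GATA3 is the factor on which their identity and their Il5 and Il13 expression depend, and RORα is needed for their development. Upstream of both, NFIL3, TOX and the Tcf7 product TCF-1 act in the common progenitors of innate lymphoid cells, and PLZF, the product of Zbtb16, marks an ILC precursor. BCL11B and GFI1 hold mature ILC2s to their fate. LEF-1 is the close relative of TCF-1 and ETS1 a general lymphoid factor that ILC2 development also needs. Tcf7, Lef1, Bcl11b, Gata3 and Ets1 are used by T cells as well.

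Promoter windows from RefSeq (GRCm38.p6), 250 bases directly before an annotated start, were matched by symbol for 7 of the 10 genes. The entries not found were Tox, Zbtb16 and Ets1. The windows below belong to Tcf7, Lef1 and Nfil3. All windows were scanned on both strands for short core motifs bound by the same factor families. Capitals mark the motif matches, and each sequence is read 5′ to 3′ on the gene's strand. The first is an internal start of Tcf7 at chr11:52282596-52282845 on the minus strand, the second an internal start of Lef1 at chr3:131156044-131156293 on the plus strand, and the third the start of Nfil3 at chr13:52981040-52981289 on the minus strand.
Tcf7: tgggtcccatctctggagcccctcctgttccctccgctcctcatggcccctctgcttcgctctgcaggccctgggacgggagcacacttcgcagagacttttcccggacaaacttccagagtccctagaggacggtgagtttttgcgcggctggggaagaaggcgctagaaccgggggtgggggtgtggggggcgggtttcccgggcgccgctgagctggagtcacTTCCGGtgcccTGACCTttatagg
Lef1: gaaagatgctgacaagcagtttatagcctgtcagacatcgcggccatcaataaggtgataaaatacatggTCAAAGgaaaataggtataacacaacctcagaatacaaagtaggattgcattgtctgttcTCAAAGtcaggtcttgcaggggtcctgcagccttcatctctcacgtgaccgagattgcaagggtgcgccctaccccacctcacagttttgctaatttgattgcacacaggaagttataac
Nfil3: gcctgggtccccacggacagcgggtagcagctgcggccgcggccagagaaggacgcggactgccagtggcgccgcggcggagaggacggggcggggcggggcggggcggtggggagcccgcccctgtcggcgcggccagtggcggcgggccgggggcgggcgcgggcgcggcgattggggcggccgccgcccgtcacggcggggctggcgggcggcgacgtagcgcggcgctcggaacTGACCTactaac
In the Tcf7 window the ETS core CCGGAA began 24 bases and the ROR core AGGTCA 13 bases before the start, both read on the opposite strand. The Lef1 window held the TCF/LEF core CTTTGA 180 and 120 bases before the start, also on the opposite strand. The windows were shown because they hold matches: the other 3 windows of Lef1 and the other window of Tcf7, which ends at its outermost start, held none of the motifs searched. The Nfil3 window held the ROR core 12 bases before its start. These cores are common: over 32817 windows of the same length, CTTTGA was present in 13.8%, AGGTCA in 14% and CCGGAA in 12%. Of GATA sites only the form AGATAA (9.99% of all windows) was searched. That form, the GFI1 core AAATCA (12.4%) and the NFIL3 motif TTANGTAA (2.06%) were in none of the 12 windows of these genes. Other forms of the GATA site were not searched, and the Lef1 window above holds TGATAA in lower case. Bcl11b had a CTTTGA core 89 bases and Gata3 a CCGGAA core 203 bases before the start. A match is a description of the sequence only.

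The labelled cell type was read from its markers first. Il1rl1, which encodes the IL-33 receptor ST2 used in the gate, had normalized counts of 626 and 728 in WT and 774 and 760 in the KO-labelled libraries, where a normalized count is the deposited value scaled by 1 factor per library. Il7r (CD127) lay at 254, 250, 298 and 304 in the same order, so both gate markers were abundant in every library. Other ILC2 markers, named after their values were seen, did not all move alike. Il2ra (CD25) fell from 699 and 836 to 536 and 524 (edgeR adjusted p = 0.0133), while Klrg1 rose from 384 and 346 to 466 and 484 (edgeR adjusted p = 0.0191). Areg lay at 764 and 914 against 669 and 730 and did not pass the threshold. Thy1 had lower counts than these markers in every library, at 23.9 and 24.2 in WT against 22.4 and 22.9. It did not pass the threshold between the groups (log2 fold change -0.06, edgeR adjusted p = 0.844). RNA of Icam1, the targeted gene, did not separate the groups in the direction of the labels. Its normalized counts were 85.2 and 83.3 in WT and 97.6 and 110 in the KO-labelled libraries, not lower in either (log2 fold change 0.33, SE 0.108, edgeR adjusted p = 0.0745). A gene count adds reads from all exons and does not show which exons were read or whether protein was made. ICAM-1 protein was not measured in these libraries. The paper followed it by flow cytometry on activated lung ILC2s of this strain and states that the mice constitutively lack ICAM-1. Because the gene counts do not show this loss, the group is named by its label, as the KO-labelled libraries. Total counts ran from 24796148 to 28782471 per library. Correlations of log2 CPM, counts scaled to the library's total, were 0.963 within WT, 0.968 within the other group and 0.927 to 0.935 between them. Among tested genes, 8.8% were higher and 4.97% lower in the KO-labelled libraries at an adjusted p under 0.05.

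Markers of several other cell types moved with the labels. The gate took CD45+ ST2+ CD127+ cells without lineage stains, which included CD3ε, CD4, CD5, TCRβ and TCRγδ for T cells, CD45R for B cells and CD11b and CD11c for myeloid cells, and so should remove these cells. Of 19 T cell genes, 12 were higher and none lower, with a median log2 fold change of 1.48, and their summed normalized count was 1163 and 1396 in WT and 1922 and 2234 in the KO-labelled libraries. Trac, the T cell receptor alpha constant region, rose from 58.8 and 78.7 to 183 and 225. Cd6, a T cell surface receptor, rose from 39.1 and 55.1 to 115 and 143. Of the CD3 chain genes, Cd3d rose from 19.1 and 37.7 to 71.3 and 85.9 (edgeR adjusted p = 0.00796). Cd3e stood at 30.8 and 50.7 against 37.5 and 52.2 and Cd3g at 114 and 127 against 81.1 and 107, neither past the threshold. The T cell genes thus did not all move alike. Cd4 rose from 22.3 and 27.3 to 61.5 and 80.5, and Cd5 from 25.6 and 27.7 to 67.8 and 85.3, though both proteins were stained. These CD3 genes, Cd4 and Cd5 were singled out after their values were seen. Of 9 tested B cell genes, 6 were higher, with sums of 197 and 176 against 374 and 306. All 12 endothelial genes were higher (153 and 159 against 431 and 458), as were 8 of 11 macrophage and monocyte genes (508 and 504 against 859 and 1072) and 4 of 8 epithelial genes (452 and 247 against 642 and 1501). Of the NK cell and ILC1 genes 3 of 7 rose (299 and 342 against 361 and 414), and of the ILC3 genes 1 of 6 rose, which was Ccr6 (list sums of 30.7 and 43.4 against 60.5 and 72.5). Of the fibroblast genes 0 of 5 passed the threshold (15.5 and 47.9 against 36.4 and 78.4), and 1 had an unadjusted edgeR p under 0.05. All 5 had a positive log2 fold change, with a median of 0.90. Of the eosinophil, mast cell and basophil genes 2 of 8 rose and 2 fell (634 and 551 against 605 and 786). These sums hide the 2 that fell, the eosinophil granule genes Epx and Prg2. Epx had 1027 and 739 counts in WT and 0 and 0 in the KO-labelled libraries (edgeR adjusted p = 0.000416). Prg2 fell from normalized counts of 52.3 and 33 to 1.18 and 3.79 (edgeR adjusted p = 0.000711). The 2 that rose were Hdc (104 and 95.1 against 143 and 166) and Ccr3 (5.18 and 8.42 against 14.6 and 25.6). No marker in these lists was at 0 in all 4 libraries. The part of these cell types in the results on the 10 factors was not tested, and in bulk RNA fewer cells of a type and less RNA per cell cannot be told apart.

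Across the 10 factors, Tcf7 and Ets1 were higher in the KO-labelled libraries, Nfil3 was lower, and the other 7 did not pass the threshold. The share higher, 2 of 10, stands beside 8.8% of all tested genes, and the share lower, 1 of 10, beside 4.97%. The libraries of the groups did not overlap for 7 of the 10 genes, 5 with the higher values under the ICAM-1 KO label and 2 with the lower, against 59.5% of all tested genes without overlap in either direction, so separation of the libraries by itself was common. At 2-fold or more, Tcf7 alone passed, against 4.94% of all genes higher at that size. The median log2 fold change over the 10 genes was 0.15, and 0.01 over all tested genes.

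**Figure D1:**
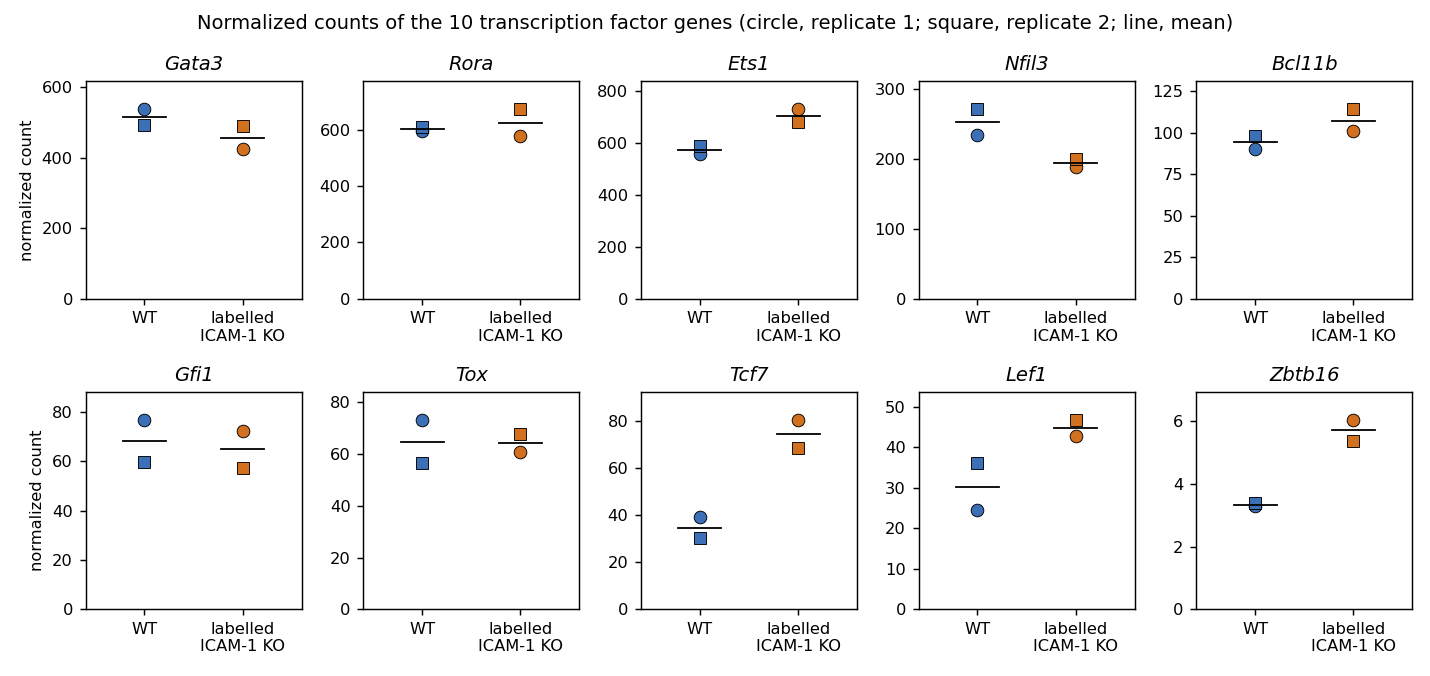
Normalized counts (y axes from 0, each gene on its own scale) of the 10 factors in the 2 WT libraries (blue) and the 2 labelled ICAM-1 KO (orange); circles are replicate 1, squares replicate 2 and lines the means. The Tcf7 points of the KO-labelled libraries (80.5 and 68.6) sit far above those of WT (39.1 and 30.3), while the Rora, Gfi1 and Tox points of the groups overlap.

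Tcf7 encodes TCF-1, the HMG-box factor that acts early in ILC and T cell development and that naive and memory lymphocytes keep. It lies on chromosome 11 from 52252371 to 52283014 on the minus strand of mm10. Its counts were 1183 and 957 in WT and 2319 and 2151 in the KO-labelled libraries. As normalized counts these were 39.1 and 30.3 against 80.5 and 68.6, or 34.7 ± 6.19 against 74.5 ± 8.46 (SD, n = 2 libraries each). Both KO-labelled libraries lay above both WT libraries with a wide gap. The difference was 2.19-fold (log2 fold change 1.13, SE 0.152, 95% interval 0.78 to 1.47, edgeR adjusted p = 0.0029). Among the 10 factors it was the largest change, and it passed the threshold under all 13 alternative settings, with log2 fold changes of 0.96 to 1.32. Per length, Tcf7 stood at a CPM per kilobase of exons of 14.6 ± 2.74 in WT and at 32.7 ± 4.09 in the KO-labelled libraries, which took it from the 68.2 to the 83.8 percentile of tested genes. In the same libraries 12 of 19 T cell genes were higher and 7 did not pass, with a median log2 fold change of 1.48. The part of T cells in the Tcf7 difference was not tested. A same-strand RNA inside the locus, Gm26551, carried 18 to 35 counts, between 0.906% and 2.37% of the Tcf7 count.

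Lef1 encodes the closest relative of TCF-1 and has overlapping targets with it. It lies on chromosome 3 from 131110471 to 131224356 on the plus strand. Its normalized counts were 24.5 and 36 in WT and 42.9 and 46.7 in the KO-labelled libraries. The values were therefore higher under the ICAM-1 KO label without overlap, but the WT libraries were far apart. The log2 fold change was 0.59 (SE 0.188, 95% interval 0.17 to 1.02) and did not pass the threshold (edgeR adjusted p = 0.0675). The value rested on which WT library was kept: it was 0.34 without WT replicate 1 (edgeR adjusted p = 0.24) and 0.90 without WT replicate 2 (edgeR adjusted p = 0.031), the only one of the 4 libraries whose removal brought it past the threshold. With DESeq2 it passed (adjusted p = 0.0279). Per length Lef1 was the lower expressed of the pair, at 3.79 ± 0.992 in WT and 5.87 ± 0.281 in the KO-labelled libraries (CPM per kilobase of exons). The ratio of Tcf7 to Lef1 per length was 5.35 and 2.82 in WT and 6.28 and 4.92 in the others, with overlap.

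**Figure D2:**
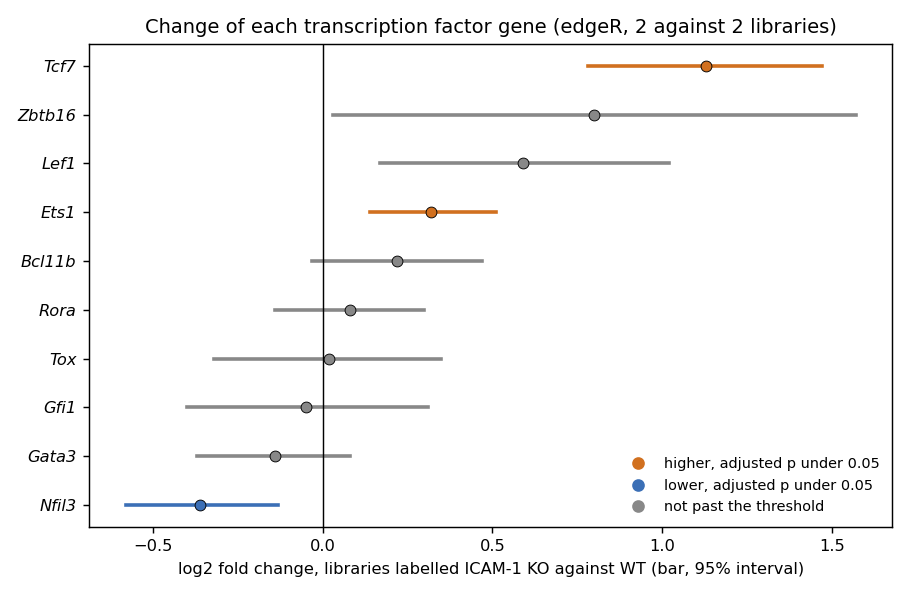
Log2 fold change (x axis, KO-labelled libraries against WT) of each of the 10 factors, with bars for the 95% interval of the edgeR fit; orange and blue mark adjusted p under 0.05. Tcf7 stands apart at 1.13, Ets1 (0.32) and Nfil3 (-0.36) are small changes past the threshold, and the wide bar of Zbtb16 (0.03 to 1.57) goes with its low counts.

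The proteins that TCF-1 and LEF-1 work with were examined next. Without β-catenin these factors recruit Groucho/TLE corepressors, and with it they activate. Of 17 tested partners and Wnt pathway genes, 3 rose, 1 fell and 13 did not pass the threshold (17.6% higher and 5.88% lower, median log2 fold change 0.14). Of the TLE corepressor genes, Tle3 was lower, Tle1 was higher and the others tested did not pass. Tle3 had normalized counts of 63.1 and 66.7 in WT and 14.6 and 15.6 in the KO-labelled libraries, a 4.21-fold fall (log2 fold change -2.07, SE 0.144, edgeR adjusted p = 0.000136). It lies on chromosome 9 from 61372366 to 61418497, and Icam1 lies on the same chromosome from 21015985 to 21028817. The part of linkage to the targeted allele in the Tle3 difference was not tested. Tle1 rose from 9.9 and 12.3 to 27.8 and 26.7 (2.5-fold, log2 fold change 1.32, SE 0.2, edgeR adjusted p = 0.00462). Both passed under all 13 alternatives. Tle4 was at 26.3 and 21.3 against 34.4 and 35 (log2 fold change 0.57, edgeR adjusted p = 0.051), and the short family member Aes at 319 and 266 against 258 and 297 (log2 fold change -0.05). Tle2 overlapped at 4.69 and 1.01 against 5.35 and 4.46. The values of Tle2, Tle4, Aes and Ctnnb1 were singled out after the values were seen. Ctnnb1, the β-catenin gene, had 228 and 248 against 276 and 226, with overlap, and a 95% interval of -0.14 to 0.35 for its log2 fold change. Jup, the gene of the β-catenin relative plakoglobin, rose from 45 and 35.5 to 63.7 and 63.2 (edgeR adjusted p = 0.0158). Nkd1, a Wnt feedback inhibitor, rose from 4.82 and 2.63 to 10.7 and 10.5 (edgeR adjusted p = 0.0195). Without WT replicate 2 neither Jup (log2 fold change 0.52, edgeR adjusted p = 0.0742) nor Nkd1 (1.17, 0.0943) passed, nor did they without a filter on low counts (edgeR adjusted p = 0.0864 and 0.073). Axin2, a common Wnt target, was too low to be tested, at 1.68, 1.17, 2.19 and 2.23.

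**Figure D3:**
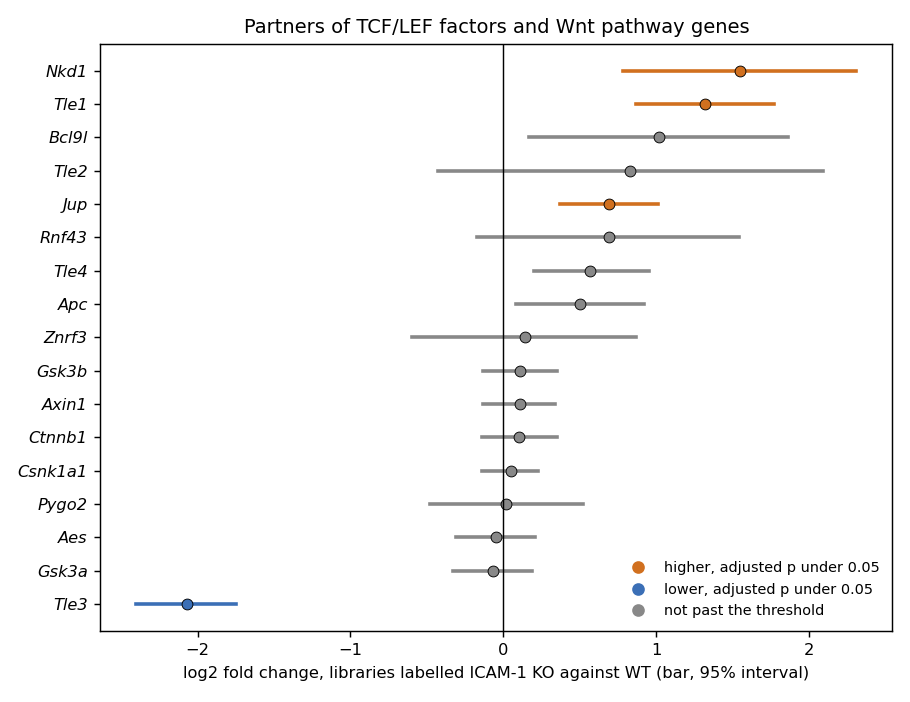
Log2 fold change (x axis) with 95% interval for the 17 tested partners of TCF/LEF factors and Wnt pathway genes; orange and blue mark adjusted p under 0.05. Tle3 lies alone on the left at -2.07, while Tle1 lies on the right at 1.32 and Ctnnb1 near 0 at 0.10.

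Genes that quiescent, recirculating lymphocytes express, several of them shared with TCF-1-high T cells, were read as a group. Of 15 tested, 7 rose, none fell and 8 did not pass, with a median log2 fold change of 0.78. S1pr1, the receptor that draws lymphocytes out of tissue, rose from 66 and 94.2 to 151 and 145 (1.88-fold, edgeR adjusted p = 0.00705). Klf2, the factor that drives S1pr1, rose from 47.3 and 51.7 to 76.7 and 94.4 (1.76-fold), and Slamf6 from 7.76 and 18.2 to 45.5 and 52.6 (3.84-fold, log2 fold change 1.94). The Slamf6 value rested on the WT libraries, at 1.46 without WT replicate 1 and 2.69 without WT replicate 2, past the threshold in both. Without a filter on low counts S1pr1 (edgeR adjusted p = 0.0573) and Klf2 (0.053) did not pass. The chemokine receptor gene Ccr7, singled out after its values were seen, overlapped at 149 and 199 against 184 and 190. The genes named here are also expressed by T or B cells, of whose lists 12 of 19 and 6 of 9 tested genes were higher in the same libraries. The part of such cells in these values was not tested.

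Ets1 is a winged helix-turn-helix factor of lymphoid cells. It lies on chromosome 9 from 32636221 to 32757820 on the plus strand. Its normalized counts were 556 and 588 in WT and 728 and 678 in the KO-labelled libraries, or 572 ± 22.7 against 703 ± 35 (SD, n = 2). The groups did not overlap and the difference was 1.25-fold (log2 fold change 0.32, SE 0.0824, 95% interval 0.14 to 0.51, edgeR adjusted p = 0.0344). The call did not hold without WT replicate 1 (log2 fold change 0.28, edgeR adjusted p = 0.163), WT replicate 2 (0.36, 0.0969) or ICAM-1 KO replicate 1 (0.28, 0.141), fits in which a group is a single library assumed to vary like the other, nor without a filter on low counts (0.28, 0.0885). Ets1 lies 11.6 Mb from Icam1. The deficient strain's allele was made in 129-derived cells, so linked genes can carry other alleles. Within 20 Mb of Icam1, 7.59% of 145 tested genes were higher and 5.52% lower, and over chromosome 9 the shares were 10.3% and 6.38%. The part of linkage in the Ets1 difference was not tested.

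Nfil3 encodes a bZIP factor that common ILC progenitors need and that circadian and cytokine signals regulate in mature cells. It lies on chromosome 13 from 52967209 to 52981073 on the minus strand. Its normalized counts were 235 and 271 in WT and 188 and 200 in the KO-labelled libraries, or 253 ± 25.6 against 194 ± 9.04 (SD, n = 2). Both WT libraries were higher, by 1.28-fold (log2 fold change -0.36, SE 0.1, 95% interval -0.58 to -0.13, edgeR adjusted p = 0.0473). The value sat near the threshold. It was past it without ICAM-1 KO replicate 2, but not without WT replicate 1 (log2 fold change -0.46, edgeR adjusted p = 0.056), WT replicate 2 (-0.25, 0.215) or ICAM-1 KO replicate 1 (-0.30, 0.164), nor without a filter on low counts (-0.40, 0.0956). Hlf, a PAR bZIP gene that binds similar sites to NFIL3, fell as well, from 118 and 135 to 86.6 and 77.6 (log2 fold change -0.59, edgeR adjusted p = 0.0109, and -0.49 and 0.0633 without WT replicate 2).

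Gata3, on chromosome 2 from 9857078 to 9890034 on the minus strand, encodes the factor that ILC2 identity rests on. Its normalized counts were 537 and 493 in WT and 425 and 489 in the KO-labelled libraries. The highest of the latter was just under the lowest WT library. The log2 fold change was -0.14 (SE 0.0986, 95% interval -0.37 to 0.08, edgeR adjusted p = 0.363), so a fall larger than the lower bound lay outside the interval. Its cofactor and chromatin partner genes, with those of GFI1, held 0 higher and 1 lower of 11, Hdac2 (141 and 144 against 114 and 110, edgeR adjusted p = 0.0467), and with any of the 4 libraries left out Hdac2 did not pass (log2 fold changes -0.34 to -0.31, edgeR adjusted p 0.112 to 0.165). The friend-of-GATA gene Zfpm1, singled out after its values were seen, was at 27.1 and 19.7 against 20.6 and 22.9, with overlap.

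Rora, on chromosome 9 from 68653786 to 69388246 on the plus strand, encodes the nuclear receptor RORα. Rora had normalized counts of 595 and 609 in WT and 576 and 672 in the KO-labelled libraries. The WT libraries lay inside the range of the others (log2 fold change 0.08, SE 0.0972, 95% interval -0.14 to 0.30, edgeR adjusted p = 0.631). Rora lies 47.6 Mb from Icam1.

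Bcl11b, on chromosome 12 from 107910403 to 108003602 on the minus strand, encodes a zinc-finger factor that ILC2s share with T cells. The normalized counts of Bcl11b were 90.3 and 98.2 in WT and 101 and 114 in the KO-labelled libraries. The groups did not overlap, by a narrow gap, and the log2 fold change of 0.22 (SE 0.11, 95% interval -0.03 to 0.47) did not pass (edgeR adjusted p = 0.22). In the same libraries 12 of 19 T cell genes were higher and 7 did not pass, and their part in the Bcl11b values was not tested.

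Gfi1, on chromosome 5 from 107716657 to 107726036 on the minus strand, encodes a zinc-finger repressor. Gfi1 had normalized counts of 76.7 and 59.8 in WT and 72.4 and 57.4 in the KO-labelled libraries. Spread within each group was larger than the difference between them (log2 fold change -0.05, SE 0.156, 95% interval -0.40 to 0.31). An antisense RNA at the locus, A430072P03Rik, carried 2.89% to 5.24% as many counts, and whether counting used strand is not stated.

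Tox, on chromosome 4 from 6686353 to 6991557 on the minus strand, encodes the HMG-box factor of early ILC progenitors. Tox had normalized counts of 73.1 and 56.4 in WT and 60.6 and 67.7 in the KO-labelled libraries. The values of the latter fell between those of WT (log2 fold change 0.02, SE 0.146, 95% interval -0.32 to 0.35). Its paralog Tox2, singled out after its values were seen, was at 94.2 and 91.7 against 93.3 and 99.6.

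Zbtb16, on chromosome 9 from 48654297 to 48836222 on the minus strand, encodes PLZF, a zinc-finger factor of ILC precursors and of innate-like T cells. It was the least expressed of the 10, with 99 and 106 counts in WT and 173 and 168 in the KO-labelled libraries. As normalized counts these were 3.3 and 3.39 against 6.04 and 5.38, without overlap. The fitted log2 fold change of 0.80 (SE 0.34, 95% interval 0.03 to 1.57) did not pass the threshold (edgeR adjusted p = 0.15), nor did it under any of the 13 alternatives. Zbtb16 lies 27.6 Mb from Icam1.

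Levels between the genes were compared per length, as CPM per kilobase of exons. In WT, Gata3 led at 143 ± 9.88, beside Nfil3 at 138 ± 12.7, and these neighbours did not differ beyond their spread. Ets1 followed at 74.5 ± 2.26 and Rora at 50.9 ± 0.346, apart from each other and from the first pair. Gfi1 was at 23.7 ± 4.37, and Tcf7 (14.6 ± 2.74) and Bcl11b (12.8 ± 0.639) were again within their spread. Tox at 9.41 ± 1.8, Lef1 at 3.79 ± 0.992 and Zbtb16 at 0.692 ± 0.00659 came last. Gata3 and Nfil3 stood at the 96.4 and 96.1 percentiles of all tested genes in WT, and Zbtb16 at 5.58. By exon length the order in the KO-labelled libraries differed at a single place: Tcf7 at 32.7 ± 4.09 stood above Gfi1 at 23.5 ± 4.11. The other values there were 132 ± 11.6 for Gata3, 110 ± 3.87 for Nfil3, 95.6 ± 5.87 for Ets1, 55.0 ± 5.4 for Rora, 15.3 ± 1.14 for Bcl11b, 9.71 ± 0.645 for Tox, 5.87 ± 0.281 for Lef1 and 1.24 ± 0.115 for Zbtb16. Within each library the ratio of Gata3 to Tcf7 per length was 9.07 and 10.7 in WT and 3.49 and 4.71 in the KO-labelled libraries. The ratio of Gata3 to Rora was 2.96 and 2.66 against 2.43 and 2.39, and that of Bcl11b to Zbtb16 18 and 19 against 10.9 and 13.9. Dividing by the longest transcript in place of all exons put Tox (18.1) above Tcf7 (15.5) and Bcl11b (12.8) in WT, and in the KO-labelled libraries it put Ets1 (160) above Nfil3 (110), so the order of these genes rests on the length used.

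**Figure D4:**
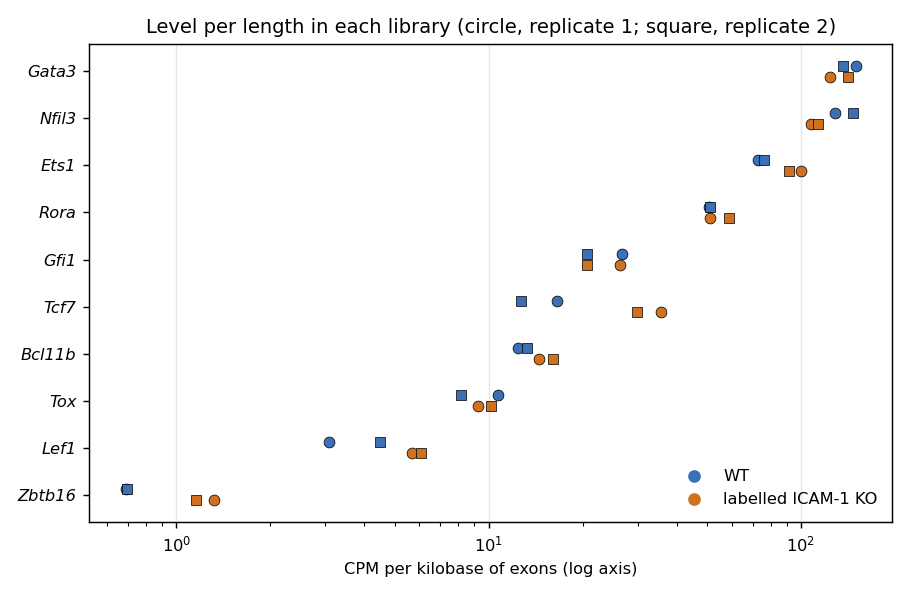
CPM per kilobase of exons (x axis, logarithmic) of the 10 factors in each library; blue is WT, orange labelled ICAM-1 KO, circles replicate 1 and squares replicate 2. The genes span from 0.692 (Zbtb16) to 143 (Gata3) in the WT means, and Tcf7 is the gene whose orange points move past a neighbour.

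Other factors of the same families and lineages were compared with the 10. Of 18 paralogs, 10 were high enough to test, and of these Ets2 rose (99.3 and 99.8 against 130 and 136, log2 fold change 0.45, edgeR adjusted p = 0.0174), Hlf fell and 8 did not pass. The Ets2 call did not hold without WT replicate 1 (log2 fold change 0.44, edgeR adjusted p = 0.0707), WT replicate 2 (0.45, 0.0697) or ICAM-1 KO replicate 2 (0.41, 0.0668), nor without a filter on low counts (0.40, 0.081). Of 20 other factors with roles in ILC development, 1 rose and 3 fell (median log2 fold change 0.04). Id2, the inhibitor of E proteins that all ILCs need, fell from 1340 and 1364 to 842 and 962 (1.47-fold, edgeR adjusted p = 0.00743, and 0.0526 without WT replicate 2). Pparg, a nuclear receptor that ILC2s express, fell from 228 and 221 to 144 and 142 (1.55-fold, edgeR adjusted p = 0.00312). Batf, an AP-1 family factor of activated lymphocytes, fell from 146 and 149 to 105 and 106 (1.37-fold, edgeR adjusted p = 0.0142), and Ikzf3, the Aiolos gene, rose from 134 and 128 to 174 and 170 (1.34-fold, edgeR adjusted p = 0.0171). Without WT replicate 1 or WT replicate 2, Batf (edgeR adjusted p = 0.0535 and 0.0624) and Ikzf3 (0.058 and 0.0812) did not pass.

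Factors that specify other fates were mostly low. Of 11 tested, 2 rose and none fell (18.2% higher, median log2 fold change 0.46). Foxp3, which defines regulatory T cells, rose from 42.4 and 53.9 to 157 and 181 (3.58-fold, log2 fold change 1.84, SE 0.138, edgeR adjusted p = 0.000224). Spib, a factor of B cells and plasmacytoid dendritic cells, rose from 9.15 and 9.53 to 23 and 14.4 (edgeR adjusted p = 0.0393, with a log2 fold change of 1.03; 0.67 and 0.239 without ICAM-1 KO replicate 1, and adjusted p = 0.133 without WT replicate 1 and 0.121 without WT replicate 2). Tbx21 (2.91 and 2.37 against 4.65 and 3.44), the factor of ILC1s, was singled out after its values were seen and did not pass.

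Genes that mark ILC2s and their effector state, several of them bound by GATA3, moved both ways. Of 18, 3 rose, 7 fell and 8 did not pass (median log2 fold change -0.07), and their summed normalized count was 10400 and 10855 in WT and 8704 and 8793 in the KO-labelled libraries. Il5 fell from 1039 and 1252 to 668 and 656 (1.7-fold, edgeR adjusted p = 0.00274), and Arg1, the arginase of activated ILC2s, from 1641 and 1524 to 1061 and 925 (1.57-fold, edgeR adjusted p = 0.00371). Il13, named after its values were seen, fell from 31.6 and 35.2 to 11.1 and 12.9 (2.73-fold, edgeR adjusted p = 0.00247). Gata3 in the same libraries had a log2 fold change of -0.14 (95% interval -0.37 to 0.08), and its part in these falls was not tested. Ptprc, which encodes CD45, rose from 706 and 701 to 920 and 896 (edgeR adjusted p = 0.0138, and 0.0763 and 0.08 without WT replicate 1 and WT replicate 2).

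**Figure D5:**
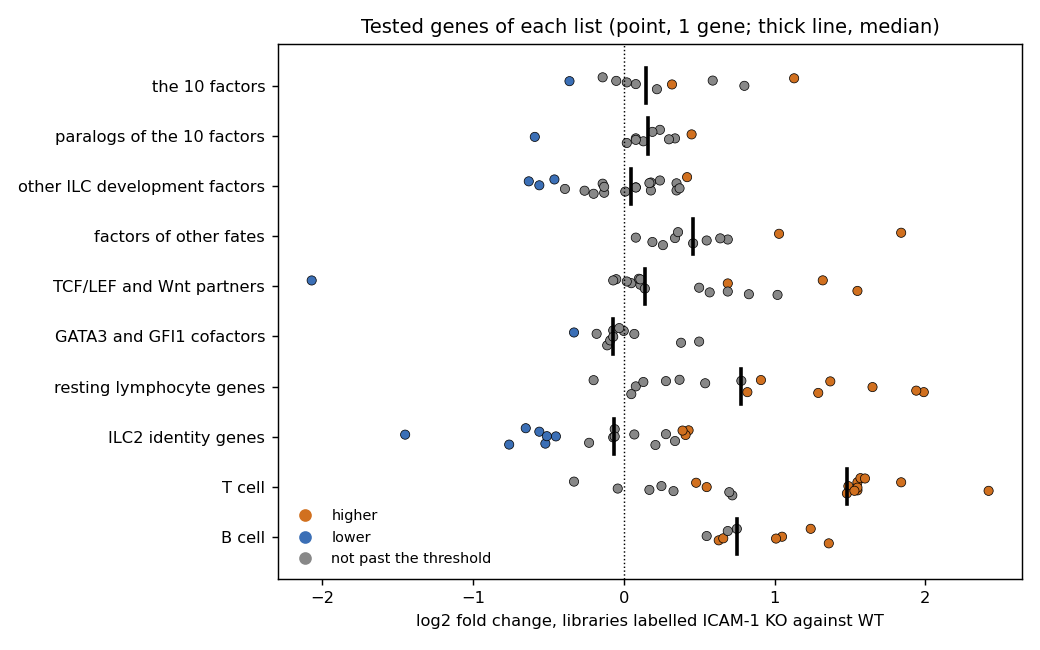
Log2 fold change (x axis, KO-labelled libraries against WT) of each tested gene of 10 lists, 1 point per gene with small vertical scatter for sight only; thick lines are medians, orange and blue mark adjusted p under 0.05. The 10 factors centre at 0.15, the ILC2 identity genes at -0.07, the resting lymphocyte genes at 0.78 and the T cell genes at 1.48.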

How the data were processed

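RNA of 4 libraries (2 WT and 2 labelled ICAM-1 KO) was prepared with a SMARTer low-input kit. Per the methods, reads were aligned with STAR to mm10 and quantified in Partek against GENCODE M20; the submitters' notes name CASAVA 1.8.2 and STAR 3.5.3. The authors deposited estimated counts per gene, which an expectation-maximization step need not leave whole, and a second table of normalized signal, in which the authors added 1 to each count and scaled by 1 upper-quartile factor per library. Counts were rounded, kept where the mean normalized count was at least 1 and the sum at least 10, and tested with edgeR 4.0.16 (R 4.3.3; quasi-likelihood, upper-quartile factors, no covariate) with Benjamini-Hochberg adjustment over all 11711 genes, at 0.05. Scripts were tested on simulated data. Gene coordinates equal GENCODE M21 for all 10 genes, whose exons gave the lengths. Alternatives were TMM factors, DESeq2 1.42.0, limma 3.58.1, other filters, the older quasi-likelihood method, a replicate block and leaving out each library. From each list, up to 4 called genes with the highest mean were named. The 10 genes and the lists were chosen with earlier results of these data known. Some genes that this rule would name are not reported here.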

Additional observations from a re-analysis of the deposited data

How the results depend on the processing

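With a fold of at least 2 required, 1 of the 10 factors was higher and 0 lower (over all genes 578 and 63). Without a filter on low counts 1 was higher and 0 lower (334 and 201 over all genes), and with filterByExpr also 1 and 0. The older quasi-likelihood method gave 0 lower among the factors, and DESeq2 gave 930 lower over all genes. In these fits the cause was not tested, beyond the larger number of genes tested without a filter (22158) and with filterByExpr (16404). Leaving out each library in turn gave 1 to 2 factors higher and 0 to 1 lower, and 479 to 948 genes higher and 158 to 388 lower over all genes, with a single library left in a group that is assumed to vary like the other. Libraries with the same replicate number did not deviate together over genes (correlation of the replicate differences -0.0663). That value alone cannot show whether replicates were handled in pairs, which the labels do not say. With a replicate block 3 factors were higher and 1 lower (1077 and 638 over all genes), Lef1 being the added call (adjusted p = 0.0364). Of the 13 alternatives, Tcf7 passed in 13, Ets1 in 8, Nfil3 in 7 and Lef1 in 3, each in its direction throughout. Gata3, Bcl11b and Zbtb16 kept their sign and passed in none, and Rora, Gfi1 and Tox, which also passed in none, changed sign in some. Depth limited Zbtb16 most, at 99 to 173 counts. The tests have 2 libraries per group.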

Other observations

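The tested genes whose profile over the 4 libraries lay nearest to each called factor (Euclidean distance of log2 normalized counts, each centred on its mean) are given as a description, since with 4 libraries many genes lie close. For Tcf7 they were Bank1, a B cell scaffold gene (distance 0.11, normalized counts 15.9 and 11.7 in WT and 31 and 25.1 in the KO-labelled libraries), and 1700017B05Rik (distance 0.123, 28.1 and 20.6 against 54.2 and 51.3). For Nfil3 they were Smim4 (0.00864) and Rps21, a ribosomal protein gene (0.0102, normalized counts 150 and 172 against 119 and 127). For Ets1 the nearest was Lrrc1 (0.0281). Genes that overlap the loci of the factors carried few counts. At Gata3 the same-strand gene 9230102O04Rik had 127 and 174 counts in WT and 173 and 200 in the KO-labelled libraries, 0.782% to 1.42% of those of Gata3, and at Ets1 the antisense gene Gm27240 had 3, 3, 0 and 0.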
